A study of Mus musculus with 22 samples.

Results

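Normal maturation of hepatocytes, the cells that carry out most of the metabolism of the liver, was followed in mice from postnatal day 14 (P14) to 2 months (M2) in the wild-type animals of a study of the Polycomb genes Ezh1 and Ezh2. All 9 wild-type libraries of the 22 in the series were used, chosen by their labels. They are 5 libraries at P14 (3 males and 2 females) and 4 at M2 (2 males and 2 females). The labels give the genotype only as Wt. They name no strain, no transgene and no treatment, and they do not say whether each library came from 1 animal. The other 13 libraries came from animals labelled Alb-Cre;Ezh1-/-;Ezh2f/f, in which Ezh1 is deleted and Ezh2 is floxed under a Cre driven by the albumin promoter. They enter only in the last comparison. Polyadenylated RNA was read as strand-specific 75 bp single-end reads and counted per gene, and the comparison of M2 with P14 weighted the sexes equally.

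At P14 the mouse pup still lives mainly on milk, which is rich in fat, and its liver is still growing. Around weaning the diet turns to carbohydrate, hepatocyte division slows, the genes of the fetal liver are shut down, and drug, bile acid and lipid metabolism take their adult form. After puberty the sex-specific pattern of growth hormone release drives different sets of liver genes in males and females.

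The libraries held 13098256 to 19222753 counts at P14 and 13215312 to 15100142 at M2. The ribosomal transcript Rn45s took 12.3 to 18.5% of all counts at P14 and 6.19 to 16.8% at M2, and the 10 most abundant genes took 43.2 to 48.1% and 28.3 to 36.4%. The first principal component (71.9% of the variance) separated the ages, and the second (12.5%) separated the sexes at M2. The third (6.76%) spread the P14 libraries, with P14 male 2 at 44.3 and the other 4 between −22.2 and 13.7. P14 male 2 and P14 male 3 were also the least alike of the replicate pairs (Pearson r = 0.964 across genes, against 0.980 to 0.990 for the other 5 pairs). Xist and the Y-linked genes matched the sex label of all 9 libraries. Levels below are CPM, counts scaled to a fixed library total after TMM normalization. They can be compared between libraries but not between genes of different length. A gene is called when its adjusted p is below 0.05 in edgeR's quasi-likelihood test.

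The hepatocyte label was checked against markers. The 10 hepatocyte markers summed to 206780 to 257708 CPM at P14 and 137815 to 167241 at M2. Markers of other cells were detected at both ages. Markers of Kupffer cells and macrophages (13 tested) summed to 278 to 385 CPM at P14 and 159 to 214 at M2, those of sinusoidal endothelium (14) to 331 to 525 and 181 to 294, and those of stellate cells and fibroblasts (14) to 269 to 463 and 116 to 195. The 8 granulocyte markers tested fell from 6.92 to 15.6 CPM in sum to 0.415 to 0.60, while the 5 erythroid markers tested summed to 22 to 30.3 CPM at P14, 116 and 123 in the M2 males and 15.4 and 16 in the M2 females. Most of that sum was Alas2, the erythroid form of the first enzyme of heme synthesis, at 101 and 111 CPM in the M2 males and 9.06 and 9.49 in the M2 females, and Slc4a1, a red cell membrane protein, was at most 0.0616 at M2. The bile duct markers Krt19, Krt7, Epcam, Cftr and Muc1 were too low to be tested. The globin genes Hba-a1 and Hbb-b1 and the cholesterol gene Hmgcs1 are listed at 0 in every library of the series, so these entries say nothing about the cells. In bulk RNA, fewer cells of a type and less RNA per cell cannot be told apart.

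Most tested genes differed between the ages. Of 12323 genes tested, 7672 were called (62.3%), 3654 higher at M2 (29.7%) and 4018 lower (32.6%). With a fold of at least 2 added to the rule, 3006 were called (24.4%). Of these 1129 were higher (9.16%) and 1877 lower (15.2%). The large changes also leaned downward, with 173 genes called at least 16-fold lower and 92 at least 16-fold higher. The median change over all genes was a log2 value of −0.04, which the scaling holds near 0. In 5280 genes (42.8%) the 4 M2 libraries did not overlap the 5 P14 libraries. With so high a share of called genes, the counts in the gene groups below are to be read against 29.7% higher and 32.6% lower.

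**Figure D1:**
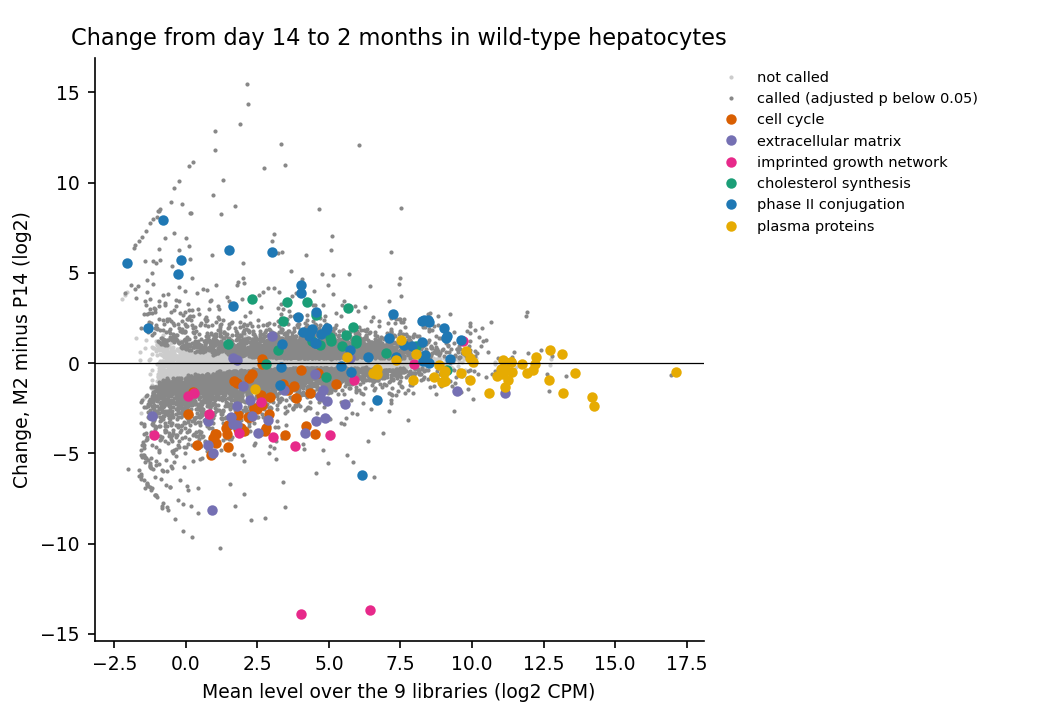
Change from P14 to M2 in wild-type hepatocytes (log2, vertical axis) against the mean level over the 9 libraries (log2 CPM, horizontal axis), with 1 point per tested gene, called genes in dark grey and 6 gene lists in colour. Cell cycle, matrix and imprinted genes lie mostly below the line of no change, cholesterol synthesis and conjugation genes mostly above it, and Igf2 and H19 are the 2 lowest points.

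**Figure D2:**
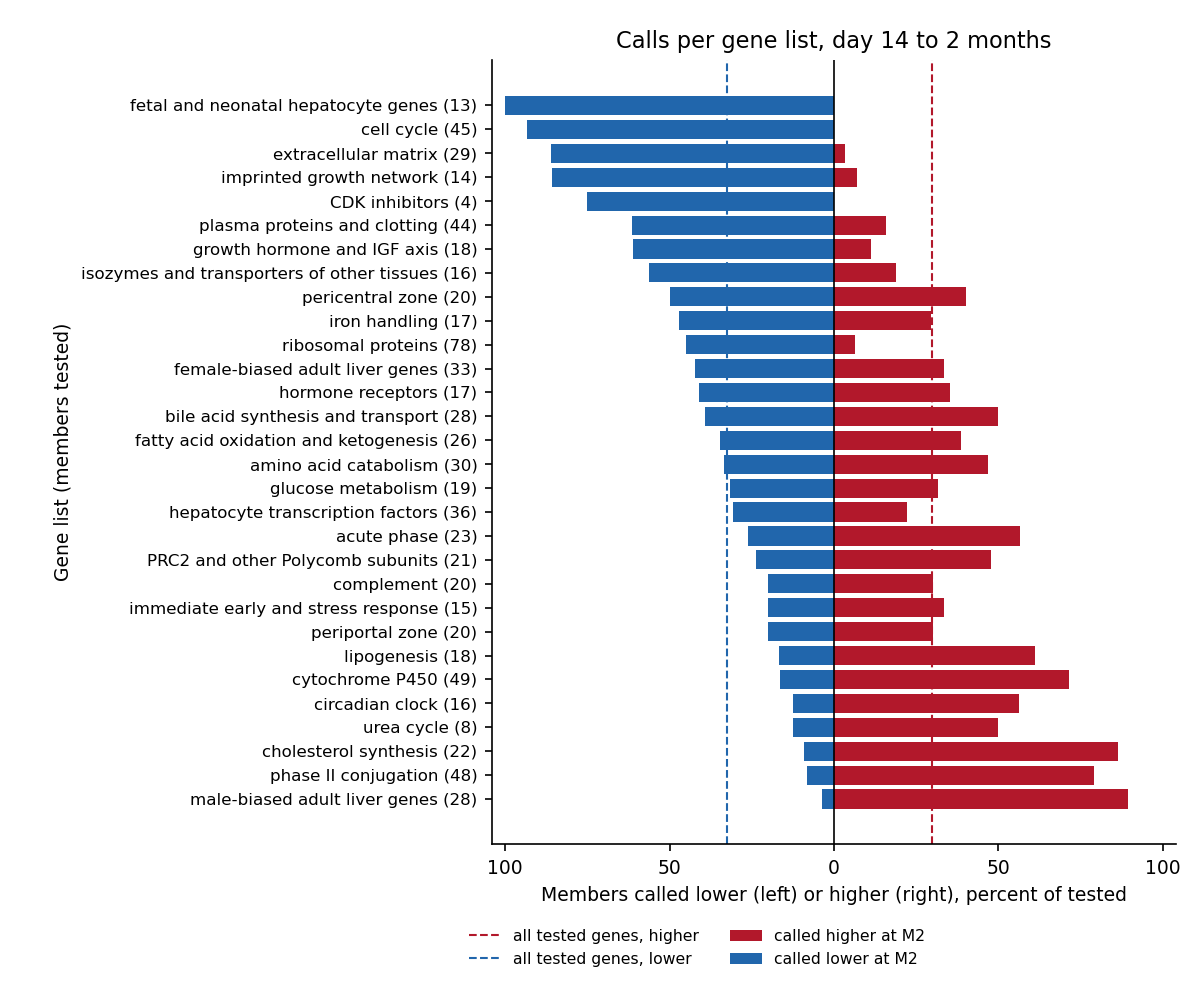
Share of the tested members of each gene list called lower (left, blue) or higher (right, red) at M2, with the number of members tested in parentheses and dashed lines at the shares of all tested genes (32.6% lower, 29.7% higher). Fetal, cell cycle, matrix and imprinted lists have at least 85.7% of their members lower, while male-biased, conjugation and cholesterol synthesis lists have at least 79.2% higher.

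Fetal hepatocyte genes fell, several of them to a handful of reads. All 13 tested genes of a list of 18 fetal and neonatal hepatocyte genes fell, with a median log2 change of −4.04, and 12 of the 14 tested imprinted growth genes fell, with a median of −3.36. The 5 fetal genes left untested (Igf2bp1, Lin28b, Hmga1, Hmga2 and Sox11) had too few reads. Igf2, the fetal insulin-like growth factor, stood at 429.7, 296 and 632 CPM in the P14 males, 1063 and 572 in the P14 females, 0 and 0 in the M2 males and 0.246 and 0.119 in the M2 females. In all, 50155 reads of Igf2 were counted at P14 and 6 at M2 (log2 change −13.92, SE 0.52, adjusted p = 7.44e-09). H19, the maternally expressed non-coding RNA next to Igf2, stood at 5152, 4508 and 4974 CPM in the P14 males, 7539.5 and 5150.4 in the P14 females, 0.45 and 0.0777 in the M2 males and 0.924 and 0.356 in the M2 females. No M2 library came near the P14 range (log2 change −13.69, SE 0.33, adjusted p = 1.04e-10).

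Gpc3, a cell-surface proteoglycan known as an oncofetal liver protein, ran from 66 to 97.5 CPM at P14 and from 0.0616 to 0.375 at M2 (log2 change −8.60, SE 0.25, adjusted p = 3.14e-10). Afp, the fetal counterpart of albumin, stood at 106, 89.3, 117, 239.5 and 69.9 CPM at P14 and at 0.30, 0.777, 0.616 and 0.296 at M2 (log2 change −7.99, SE 0.46, adjusted p = 7.74e-08). The P14 libraries differed more than 3-fold in Afp and the highest was a female, but every one was far above M2. Igf2bp3, a fetal RNA-binding protein, went from 21.2 to 0.444 CPM in the mean, and Lpl, the lipoprotein lipase of the suckling liver, from 671 to 8.69. The neonatal cytochrome Cyp3a16 went from 318 to 14.6. Among the imprinted genes, Grb10, an adaptor that restrains insulin and growth factor signalling, changed by a log2 value of −4.60, Peg3 by −3.98 and Cdkn1c, a cyclin-dependent kinase inhibitor, by −4.11. The exception was Slc38a4, an imprinted amino acid transporter, which rose from 566 ± 27 CPM (SD, n = 5) to 1297 ± 87.3 (SD, n = 4, log2 change 1.20, SE 0.10, adjusted p = 2.00e-06). Gnas was not called. The steroid enzyme genes Hsd3b1 (57.2 to 0.134 CPM) and Akr1c18 (33.7 to 0.234) were the other genes among the 6 largest decreases. Both have close paralogs, so reads may be shared with those.

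**Figure D3:**
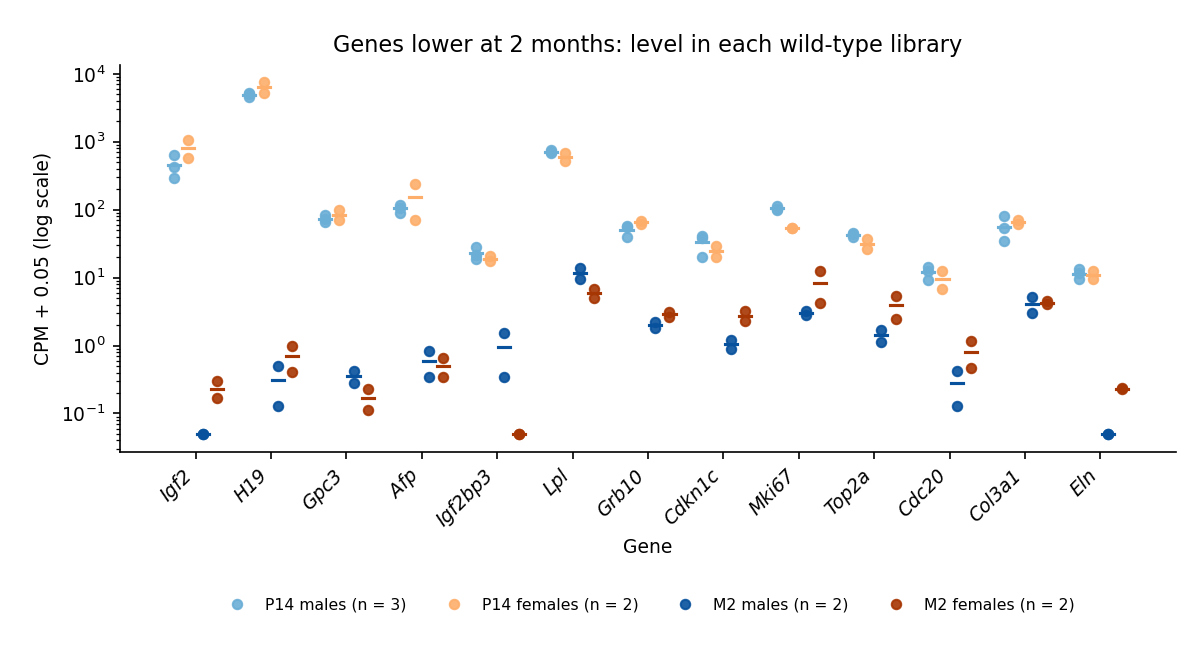
Level of 13 genes that were lower at M2 in each wild-type library (CPM + 0.05, log scale), with 1 point per library, coloured by age and sex, and a bar at the group mean. The P14 and M2 points do not overlap for any of the 13 genes, and Igf2 and H19 span the widest range.

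Secreted proteins took another course from Afp. Of 44 plasma proteins, apolipoproteins and clotting factors, 27 fell and 7 rose, with a median log2 change of −0.48, so that most decreases were small. The 7 became 4 when either P14 female 2 or M2 male 1 was left out. Albumin (Alb), the main plasma protein, took 15.5 to 16.5% of all counts at P14 and 10.5 to 14.4% at M2 (log2 change −0.48, SE 0.14, adjusted p = 0.0104). That call was lost when all 22 libraries entered the fit (adjusted p = 0.0549). The deepest decreases among the abundant carriers were in Ahsg (fetuin-A), from 41128 ± 5494 CPM (SD, n = 5) to 7799.7 ± 1375 (SD, n = 4), and Trf (transferrin, the iron carrier), from 33662 ± 4274 to 9456 ± 2787. Apoa1, the main apolipoprotein of HDL, changed by a log2 value of −1.64 and Ttr, the thyroxine carrier, by −0.96. The clotting factor gene F9 rose from 127 to 296 CPM in the mean and Gc, the vitamin D binding protein, from 5493 to 8829. Apob rose by 0.50, a call lost without P14 female 2 (adjusted p = 0.0849) or without M2 male 1 (0.0513).

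Alb, Afp and Gc belong to 1 gene family, lie close together on mouse chromosome 5 and went different ways, and their proximal promoters are shown for that contrast. HNF1, a homeodomain factor of hepatocytes, binds GTTAAT followed, after 1 base, by its reverse complement. Within 250 bases before to 50 bases after the start, 7 of 35 plasma protein genes with a promoter sequence (20.0%) held a match to the HNF1 consensus on either strand with at most 2 mismatches, against 1.36% of 9475 tested genes and 1.36% of all 32851 promoters in the table. Alb and Gc are among these 7. The fetal gene Afp, which is not in the plasma protein list, holds 2 such matches, of which the one nearer the start is shown. All 3 are printed 5′ to 3′ on the strand of the gene from RefSeq (GRCm38.p6), with the match in capitals, at chr5:90490650-90490712 on the plus strand, chr5:90460813-90460875 on the plus strand and chr5:89457913-89457975 on the minus strand.
Afp: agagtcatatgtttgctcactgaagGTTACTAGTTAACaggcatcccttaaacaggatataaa
Alb: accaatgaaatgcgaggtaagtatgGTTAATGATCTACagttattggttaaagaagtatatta
Gc: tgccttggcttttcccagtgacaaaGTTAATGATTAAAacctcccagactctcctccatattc
The matches began at positions −39, −32 and −52 from the start, and Afp and Alb had 2 mismatches each and Gc 1. A match of this kind was thus present in the gene that fell to near 0, in the one that fell slightly and in the one that rose. These letters describe the sequence only, since no binding was measured.

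Cell division genes fell broadly, some of them unequally in the sexes. Of 45 cell cycle genes, all of them tested, 42 fell and none rose, with a median log2 change of −2.89, against 32.6% of all genes. Mki67, the proliferation marker Ki-67, stood at 98.8, 113 and 102 CPM in the P14 males, 53 and 53.4 in the P14 females, 3.22 and 2.72 in the M2 males and 12.4 and 4.21 in the M2 females. Its change was a log2 value of −3.91 (SE 0.26, adjusted p = 2.39e-07). At M2 the library of female 1 lay well above the other 3, and the decrease was larger in males (−5.14) than in females (−2.68, adjusted p of the difference = 0.0184). The change with age differed between the sexes in 8 of the 45 genes, against 3.79% of all genes, a share that moved with each library left out. For Ccnd1 (cyclin D1) the mean over libraries went only from 53.7 to 46.9 CPM, though its sex-weighted log2 change was −1.16 (adjusted p of the sex difference = 8.83e-06). Of the 45 genes, 6 were higher in females than in males at M2 (against 4.2% of all genes). That count was 1 without M2 male 2, 2 without M2 female 1, 3 without P14 male 1, P14 female 1, P14 female 2 or M2 male 1, 8 at the most, and 1 with all 22 libraries in the fit. Cdc20, which activates the anaphase-promoting complex, went from 10.9 to 0.494 CPM in the mean. Top2a, the replication topoisomerase, went from 38.2 to 2.62, Ccna2 (cyclin A2) from 22.1 to 1.65 and Aurkb (Aurora kinase B) from 7.48 to 0.216. Uhrf1, which recruits the maintenance DNA methyltransferase, went from 7.28 to 0.412. The 3 members not called were Ccne2, E2f8 and Gmnn, a set named after its values were seen.

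Many genes of mitosis carry the element TTTGAA (the CHR, a cell cycle element bound by the DREAM complex) and CCAAT boxes close to their start. TTTGAA was found on either strand in the promoters of 16 of 35 cell cycle genes with a sequence (45.7%), against 14.5% of tested genes and 17.9% of all promoters. CCAAT was found in 28 of the 35 (80.0%), against 42.9% and 37.4%. The neighbourhood of the element is shown for Cdc20 and Mki67, which are described above, and for Cdk1, the kinase that drives entry into mitosis. They lie at chr4:118437331-118437386 on the minus strand, chr7:135716447-135716502 on the minus strand and chr10:69352897-69352952 on the minus strand (RefSeq, GRCm38.p6), printed 5′ to 3′ on the strand of the gene with TTTGAA in capitals.
Cdc20: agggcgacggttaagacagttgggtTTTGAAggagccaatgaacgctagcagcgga
Mki67: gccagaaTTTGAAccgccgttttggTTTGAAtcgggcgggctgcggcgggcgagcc
Cdk1: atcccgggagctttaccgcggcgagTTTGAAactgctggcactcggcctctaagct
Relative to the start, the matches shown began at −18 in Cdc20, −116 and −98 in Mki67 and −15 in Cdk1. In Cdc20 a CCAAT box, on the same strand, follows the element within the printed window. Cdk1 changed by a log2 value of −2.32, less than Cdc20 (−4.64) and Mki67 (−3.91).

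None of the 4 tested inhibitors of cyclin-dependent kinases was called higher. Cdkn1a, the p21 protein, fell from 31.5 ± 19.1 CPM (SD, n = 5) to 2.66 ± 1.45 (SD, n = 4, log2 change −3.55, SE 0.38, adjusted p = 9.35e-06), and Cdkn1c and Cdkn2c also fell. Cdkn1b, the p27 protein, was 11 to 13.5 CPM in the mean and was not called (log2 change 0.29, adjusted p = 0.0507). It was called higher when P14 male 2, P14 male 3 or M2 male 1 was left out (adjusted p from 0.0163 to 0.0457). Cdkn2a, Cdkn2b and Cdkn2d were too low to be tested.

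Matrix genes fell with similar breadth. Of 29 tested extracellular matrix genes, 25 fell and 1 rose, with a median log2 change of −2.37. Eln (elastin) went from 9.47 to 13.4 CPM over the P14 libraries to 0 to 0.185 at M2 (log2 change −8.17, SE 0.35, adjusted p = 2.14e-08), with 900 reads at P14 and 6 at M2. The fibrillar collagen genes Col1a1 (7.63 to 0.235 CPM), Col3a1 (60.0 to 4.15) and Col5a1 (19.1 to 1.31) were lower, and so was the more abundant Fn1 (fibronectin, 3821 to 1339). The single gene that rose was Timp3, an inhibitor of matrix proteases, from 5.01 ± 1.21 CPM (SD, n = 5) to 14.3 ± 1.37 (SD, n = 4). Markers of stellate cells and fibroblasts moved with the matrix list. Of 14 tested, 10 fell and none rose (median −1.10), Reln going from 154 to 23.2 CPM while Dcn, Lum, Rgs5 and Ecm1 were not called. Col1a1, Col3a1, Dcn and Lum are in both lists. Of 13 Kupffer cell and macrophage markers 10 fell and 2 rose (median −0.81), among them Marco (21.5 to 1.93 CPM), and of 14 sinusoidal markers 11 fell and 1 rose (median −0.61), among them Stab2 (119 to 38.8). The sinusoidal count was 6 with all 22 libraries in the fit. The part of these cells in the fall of the matrix and cell cycle genes was not tested.

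The growth hormone and insulin-like growth factor (IGF) axis, which takes over from fetal Igf2 after birth, changed in its receptor and binding proteins more than in its hormone. Ghr, the growth hormone receptor, rose from 361, 426, 283, 265 and 219 CPM at P14 to 684, 714, 573 and 603 at M2 (log2 change 1.13, SE 0.13, adjusted p = 2.07e-05). The receptor kinase gene Jak2 rose by a log2 value of 0.76, while Stat5a (−1.33) and Stat5b (−1.30), the transcription factors it phosphorylates, fell. Socs2, a feedback inhibitor of the receptor, fell from 52.1 to 19.8 CPM in the mean. Igf1, the hormone itself, was already high at P14, with 564 to 1142 CPM against 849 to 1087 at M2. The ranges overlapped, and the change was not called (log2 0.31, SE 0.14, adjusted p = 0.0786). Leaving out P14 male 2 or M2 female 1 made it a call (adjusted p = 0.0083 and 0.031). The binding proteins Igfbp1 (629 to 72.5 CPM) and Igfbp2 (1496 to 244) fell. Of the 18 genes in this list 2 rose and 11 fell, with a median of −0.91.

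Other hormone receptors moved individually, with 6 of 17 tested genes higher and 7 lower (35.3 and 41.2%, against 29.7 and 32.6% of all genes). Egfr, the receptor for epidermal growth factor, rose from 230.2 to 458 CPM in the mean and Nr3c1, the glucocorticoid receptor, from 88 to 127. Lepr (leptin receptor, 88.8 to 14.2) and Avpr1a (vasopressin receptor, 39.3 to 10.7) fell.

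Among 36 tested hepatocyte transcription factors 8 were higher, 11 lower and the median was −0.03. These shares, 22.2 and 30.6%, lie below or near those of all genes, and 4 of those higher and 6 of those lower passed a fold of 2. Hnf4a, the central regulator of hepatocyte identity, was 478 ± 64.2 CPM at P14 (SD, n = 5) and 589 ± 72.1 at M2 (SD, n = 4), just short of a call (log2 0.28, adjusted p = 0.0518). Without P14 male 2, P14 male 3 or M2 female 1 it was called higher (adjusted p from 0.00974 to 0.038). It was also called higher with DESeq2, DESeq2 size factors, limma-voom and the replicate block (adjusted p from 0.00993 to 0.0443). Zbtb20, a zinc finger protein known to repress Afp, rose from 15, 14.4, 22.3, 17.8 and 12.9 CPM to 45, 40.6, 31.8 and 30.0 (log2 change 1.16, SE 0.15, adjusted p = 5.18e-05). Zhx2, another known repressor of Afp, went from 7.39 to 13.9 (log2 0.88, adjusted p = 6.89e-05). Onecut2 rose by a log2 value of 1.08.

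Subunits of the Polycomb complexes, which include the genes deleted in the rest of the series, mostly changed by less than 2-fold. Ezh1 was 8.48 to 9.96 CPM at P14 and 6.84 to 9.86 at M2 and was not called (log2 −0.27, SE 0.13, adjusted p = 0.0872). It was called lower without P14 male 2 (adjusted p = 0.0461). Ezh2, the methyltransferase typical of dividing cells, fell from 6.64 to 9.01 CPM to 2.62 to 5.24 (log2 change −0.87, SE 0.17, adjusted p = 8.79e-04). Of 21 genes in the list 10 rose and 5 fell, with a median of 0.10. Eed, the subunit that reads the H3K27 methylation mark, rose by 0.73, the demethylase gene Kdm6a by 0.73, Rnf2 by 0.92 and Cbx7, a reader subunit of the other Polycomb complex, by 1.73 (1.39 to 4.79 CPM), while Cbx6 fell by 2.14.

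Bile acid genes rose at the steps that start synthesis and at uptake. Cyp7a1, the rate-limiting enzyme of the classical pathway, stood at 64.4, 108 and 78 CPM in the P14 males, 68.6 and 97.8 in the P14 females, 273 and 322 in the M2 males and 542 and 832 in the M2 females (log2 change 2.44, SE 0.19, adjusted p = 8.27e-07). All M2 libraries were above all P14 libraries. Cyp27a1, which opens the alternative pathway, went from 92.6 ± 17.9 CPM (SD, n = 5) to 448 ± 20.1 (SD, n = 4), and Cyp7b1, its next step, from 0.802 to 2.13 to 23.7 to 361, with the M2 males above the M2 females. Baat, which conjugates bile acids to taurine or glycine, rose from 57.7 to 238. Slco1a1, an uptake transporter for organic anions, had 0.247, 0.382, 0.296, 0.054 and 0.107 CPM at P14 and 927, 776, 138 and 67 at M2 (log2 change 10.78, SE 0.32, adjusted p = 3.69e-10), the largest change of the list. Nr1h4, the bile acid receptor FXR, rose (76.6 to 159 CPM), whereas its target Nr0b2 (SHP), a repressor of Cyp7a1, went from 28.9 to 14.5. Hsd3b7, a later enzyme of the pathway, fell by a log2 value of 1.24. Across the 28 genes 14 rose (9 with all 22 libraries in the fit) and 11 fell.

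**Figure D4:**
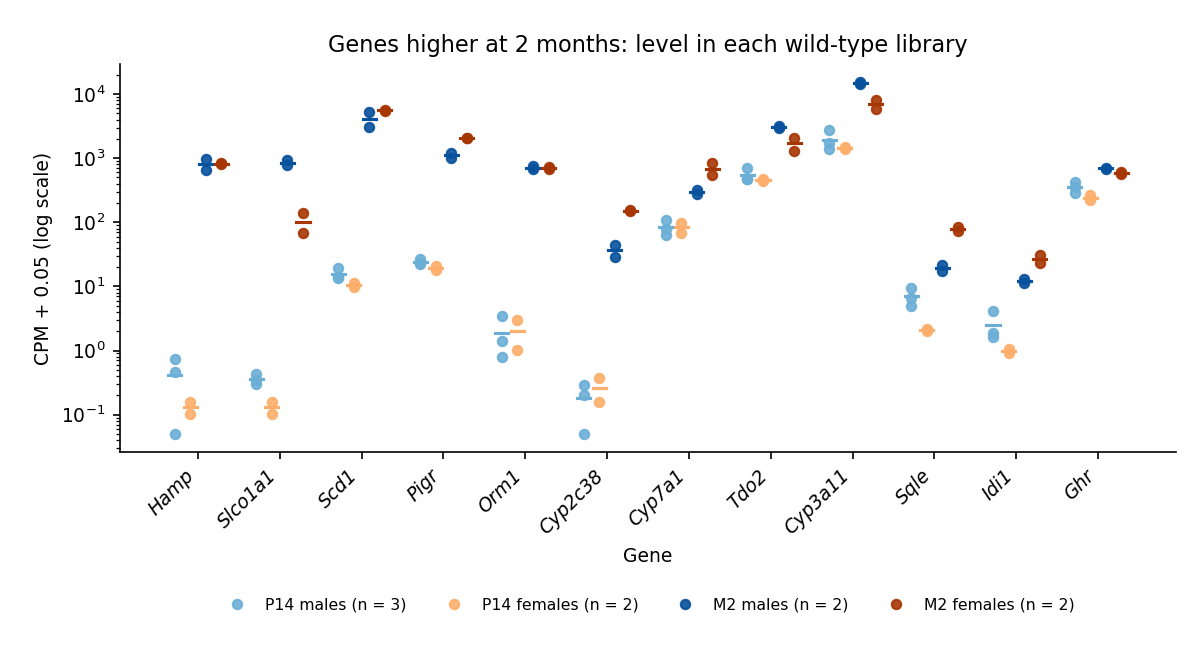
Level of 12 genes that were higher at M2 in each wild-type library (CPM + 0.05, log scale), with 1 point per library, coloured by age and sex, and a bar at the group mean. Hamp, Slco1a1, Scd1, Orm1 and Cyp2c38 are near 0 or at most 19.3 CPM at P14 and at least 28.7 at M2, and for Sqle and Idi1 the M2 females lie above the M2 males.

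The genes that make cholesterol rose together. Of 22 tested, 19 rose and 2 fell (median 1.24), against 29.7% of all genes higher. Sqle, squalene epoxidase, stood at 6.59, 9.39 and 4.91 CPM in the P14 males, 1.94 and 2.08 in the P14 females, 21.6 and 17.5 in the M2 males and 73.7 and 84.8 in the M2 females (log2 change 3.40, SE 0.18, adjusted p = 4.49e-08). Idi1, an isomerase of the isoprenoid units, stood at 1.81, 4.05 and 1.6 CPM in the P14 males, 0.863 and 1.02 in the P14 females, 12.8 and 11.2 in the M2 males and 23 and 31.1 in the M2 females (log2 change 3.56, SE 0.24, adjusted p = 2.79e-07). Both genes rose in both sexes and were highest in the M2 females. Srebf2, which encodes the sterol-sensing activator of these genes, moved the other way, from 37.8 ± 6.1 CPM (SD, n = 5) to 21.8 ± 2.52 (SD, n = 4, log2 change −0.80, SE 0.14, adjusted p = 4.24e-04). In the promoters of 14 of these genes no match to TCACNCCAC, a form of the sterol regulatory element, was found, and 1.46% of tested genes have one, so these letters are absent from these windows.

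Fatty acid synthesis showed larger single changes. Scd1, the stearoyl-CoA desaturase, stood at 19.3, 13.8 and 13.6 CPM in the P14 males, 9.77 and 11.1 in the P14 females, 3097 and 5179 in the M2 males and 5508 and 5715 in the M2 females (log2 change 8.56, SE 0.23, adjusted p = 2.02e-10). Elovl6, which extends palmitate, rose from 4.17 to 7.48 CPM to 99.3 to 287, Thrsp, a thyroid hormone and carbohydrate response gene, from 24 to 472 in the mean, and Fasn, fatty acid synthase, from 87.4 to 405. Of the 18 genes of the list, all tested, 11 rose and 3 fell (median 0.76). The 3 included Srebf1, whose protein activates lipogenic genes, but its course depended on sex, with a log2 change of −1.91 in males and 0.74 in females (adjusted p = 5.48e-05 and 0.022, 9.90e-04 for the difference). The call over both sexes was lost without M2 male 2 or M2 female 2 (adjusted p = 0.05 and 0.0584), with all 22 libraries (0.0715) and without the sex term (0.69). The number lower was 1 without M2 male 2 or without M2 female 2. Elovl5, which extends polyunsaturated fatty acids, fell from 402 to 225 CPM. At M2, 9 cholesterol synthesis genes and 9 lipogenesis genes were higher in females and none in males, against 4.2% and 3.31% of all genes. The cholesterol count ran from 2 (without M2 male 1) to 14 (without P14 male 2) over single libraries left out, with 4 without M2 male 2 and 4 without M2 female 1, and it was 0 with all 22 libraries in the fit. The lipogenesis count fell to 5 without M2 male 1 and to 3 with all 22 libraries. The labels give no feeding state.

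In the list for fatty acid oxidation and ketogenesis 10 of 26 genes rose and 9 fell (38.5 and 34.6%, near the shares of all genes), with a median of 0.07. The thioesterase gene Acot1 ran from 0.412 to 0.829 CPM at P14 and rose to between 26.6 and 40.5 at M2. Cyp4a10, a fatty acid hydroxylase, rose from 186 to 773 in the mean. The genes that fell included Bdh1, an enzyme of ketone body production, by 1.66 on the log2 scale, and Cpt1a, which admits fatty acids to mitochondria, by 0.49.

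Of 19 genes of glucose metabolism 6 rose and 6 fell (31.6% each), near the shares of all genes. Gys2, the liver glycogen synthase, rose from 130.3 to 347 CPM in the mean. Ldha (lactate dehydrogenase A, 708 to 298) and Pfkl (phosphofructokinase, 41.4 to 15.2) fell. Isozymes and transporters typical of other tissues mostly fell, with 9 of 16 tested lower and 3 higher. The non-liver hexokinase genes Hk1 (3.54 to 0.934 CPM) and Hk2 (1.89 to 0.596) fell, as did Pygb, the brain form of glycogen phosphorylase (25.5 to 2.14), while Aldoc, the brain form of aldolase (3.02 to 9.32), and Acsl4 (33.4 to 76.5) rose.

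None of the 8 urea cycle genes was called with a fold of at least 2. Cps1, the first enzyme of the urea cycle, was 6981 ± 381 CPM at P14 (SD, n = 5) and 6705 ± 1922 at M2 (SD, n = 4) and was not called (log2 −0.10, adjusted p = 0.448). Otc rose from 348 to 593 in the mean. Of the 8 genes 4 rose, or 2 without P14 female 1. The enzymes that break down amino acids were more divided, with 14 of 30 higher and 10 lower. Tdo2, which opens tryptophan breakdown, rose from 469, 703, 465, 466 and 444 CPM to 2975, 3193, 1302 and 2094 (log2 change 2.20, SE 0.17, adjusted p = 9.19e-07). Tat (tyrosine aminotransferase, 537 to 2266) and Oat (ornithine aminotransferase, 66.1 to 379) rose, and Agxt (glyoxylate aminotransferase, 343 to 121) and Prodh2 (hydroxyproline dehydrogenase, 341 to 109) fell.

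Genes that process drugs and steroids made up a broad increase. Of 49 tested cytochrome P450 genes 35 rose and 8 fell (median 1.26), and of 48 phase II conjugation genes 38 rose and 4 fell (median 1.57). Cyp3a11, a main drug-metabolising enzyme of mouse liver, went from 1716, 2734, 1410.4, 1481 and 1408 CPM to 15378, 14242, 5848 and 8095 (log2 change 2.60, SE 0.19, adjusted p = 6.15e-07). P14 male 2 was the highest of the P14 libraries, also for Cyp2e1, the ethanol-metabolising enzyme (4368 to 7227 CPM in the mean), and both were higher in every M2 library than in any P14 library. Cyp2c38 (0 to 0.321 CPM at P14, 28.7 to 157 at M2) and Cyp2c54 (8.41 to 14.3 and 333 to 369.7) rose from low levels. Among the conjugating enzymes, Gsta2, a glutathione transferase, rose from 0.354 to 28.5 CPM and Ugt1a5, a glucuronosyltransferase, from 1.16 to 118. These families have near-identical members and Ugt1a genes share exons, so the split of reads between relatives is uncertain. The neonatal Cyp3a16 went the other way from its relative Cyp3a11, as given above. Without the sex term 3 of the cytochromes and 1 of the conjugation genes were lower, and the cause was not tested.

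Hepatic hormones and defence proteins included some of the largest increases. Hamp, which encodes the iron hormone hepcidin, had 0, 0.687, 0.414, 0.054 and 0.107 CPM at P14 and 653, 964, 835 and 815 at M2 (log2 change 12.11, SE 0.36, adjusted p = 3.39e-10). Its near relative Hamp2, with which it may share reads, went from 0.324 to 1.3 to 26.4 to 442 and was higher in M2 females. Tfrc, the transferrin receptor, fell from 182 ± 20.0 CPM (SD, n = 5) to 54.7 ± 31 (SD, n = 4). Of 17 genes of iron handling 5 rose and 8 fell (29.4 and 47.1%, against 29.7 and 32.6% of all genes). The 8 became 4 without M2 male 1 or without M2 female 1, and 5 without P14 female 1 or without M2 female 2. Orm1, an acute phase glycoprotein, rose from 0.741 to 3.36 CPM to 672 to 743, and Serpina3k, a serine protease inhibitor, from 1653 to 14325 in the mean, while Apcs (serum amyloid P, 286 to 87.5) and Serpina3n (1275 to 435) fell. In the acute phase list 13 of 23 rose and 6 fell. Pigr, the receptor that carries IgA into bile, rose from 22.2, 23.5, 26.7, 17.8 and 20.7 CPM to 1218, 1012, 2062 and 2044 (log2 change 6.13, SE 0.14, adjusted p = 1.04e-10). Of 20 tested complement genes 6 rose and 4 fell (30 and 20%), near or below the shares of all genes. C9, the last component of the lytic pore, rose from 51.8 to 583 CPM, and C6 rose from 6.83, 8.25 and 12.3 CPM in males to 205 and 197 but not in females (8.63 and 8.61 and 10.2 and 11.5, log2 change 0.33, adjusted p = 0.257).

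More genes were called between the sexes at M2 than at P14. At P14 5 of 12323 genes differed between males and females (0.0406%). They were Xist, higher in females (0.00811%), and the Y-linked genes Ddx3y, Kdm5d, Eif2s3y and Uty, higher in males (0.0325%). At M2 925 genes differed (7.51%), 408 higher in males (3.31%) and 517 in females (4.2%). The P14 count depended on a single library. Without P14 male 3 it was 1215 (715 higher in males and 500 in females), and with a replicate block it was 1498, so how far the sexes already differed at P14 is not settled by these libraries. The erythroid marker sum given above and Rn45s split with sex at M2 too, Rn45s taking 13.3 and 16.8% of counts in the M2 males and 7.26 and 6.19% in the M2 females. Without Rn45s the M2 counts were 407 and 516. The erythroid marker sum was mostly the single gene Alas2, and whether cells of that kind had a part in the M2 counts was not tested. Leaving out either library of either M2 sex lowered the M2 counts to between 131 and 146 higher in males and between 154 and 260 higher in females, and leaving out P14 male 2 or P14 male 3 raised them to 1076 and 925 higher in males and 1080 and 919 higher in females. The change with age itself differed between the sexes in 467 genes (3.79%), 177 more positive in males (1.44%) and 290 more negative in males (2.35%). Both directions of that count moved by over 1.5 times with any single library left out, to 47 to 438 and 97 to 635. Within each sex the ages differed in far more genes. In males 2813 genes rose (22.8%) and 3075 fell (25.0%), in females 2979 rose (24.2%) and 2937 fell (23.8%), 4019 genes were called in the same direction in both sexes, and 77 were called with opposite signs.

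Male-biased genes mostly rose with age. Of 28 tested, 26 were higher in males at M2 (against 3.31% of all genes), and 25 rose with age (median log2 change 2.60). At P14 0 were called for sex, but so few of all genes were (0.0406%) that this says nothing particular about the list. That P14 share depended on a single library, as given above. The major urinary proteins (Mup), pheromone carriers secreted by the liver, had 23 to 58 reads per library over 18 tested genes at P14, against 319406 and 309613 reads in the M2 males and 67161 and 50819 in the M2 females. In terms of CPM that is 2.39 and 2.41% of the scaled library in males and 0.414 and 0.301% in females. All 18 were higher in males at M2 and 17 rose with age. Mup20, known as darcin, stood at 0.329, 0.611 and 0.296 CPM in the P14 males, 0.162 and 0.267 in the P14 females, 4742 and 5477 in the M2 males and 57.4 and 91.5 in the M2 females (log2 change 10.99, SE 0.27, adjusted p = 1.04e-10). It rose in both sexes and more in males. Mup17 had 0 reads in all P14 libraries and 1203, 1008, 144 and 95.2 CPM at M2, at least 16202-fold higher than 3 reads over the P14 group. Mup genes are nearly identical, so reads may be shared among them.

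Of the 28 male-biased genes all rose with age in males, and 17 rose (11 without P14 female 2) and 3 fell in females. Cyp4a12a, a fatty acid hydroxylase, had 1 read in all at P14, 324 and 317 CPM in the M2 males and 0.123 and 0.178 in the M2 females. Gstp1, a glutathione transferase, stood at 16.5, 16.7 and 15.4 CPM in the P14 males, 17.1 and 17.8 in the P14 females, 269.9 and 254 in the M2 males and 14.4 and 13.8 in the M2 females. It rose in males (log2 4.02, SE 0.14) and changed by −0.31 in females. Cyp2d9 and Serpina1e, an alpha-1-antitrypsin paralog, diverged in both directions. Serpina1e went from 261, 450.1 and 304 CPM to 9434 and 8786 in males and from 375 and 298 to 139 and 80.4 in females. Cyp2d9 changed by 4.12 in males and −1.60 in females (adjusted p = 4.81e-08 and 2.21e-04). Selenbp2 reached its male bias mainly by a fall in females, from 232 and 309 to 8.75 and 5.99 CPM, with 260.0, 289 and 269.6 in the P14 males and 702 and 459.7 in the M2 males. Hsd3b5, a male steroid enzyme, and Cyp8b1, which sets the cholic acid share of bile, also had a more positive change in males (differences of 7.78 and 3.97 on the log2 scale).

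Female-biased genes parted in both directions. In males 22 of 33 fell with age and 5 rose, while in females 20 rose and 4 fell (7 without P14 male 2). At M2 29 were higher in females (against 4.2% of all genes) and 1 in males. The count at P14 was 0 in either direction, near the 0.0406% of all genes called then, a share that depended on a single library. Cyp2b9, a steroid hydroxylase, stood at 431, 395 and 429 CPM in the P14 males, 370.3 and 361 in the P14 females, 1.35 and 0.622 in the M2 males and 756 and 613 in the M2 females. Males fell by 8.71 on the log2 scale (SE 0.29, adjusted p = 1.54e-09) while females changed by 0.90 (adjusted p = 0.00254). Cyp2b13 went from 40.7, 47.6 and 33.6 CPM in the P14 males to 0 in both M2 males, and from 26.1 and 38.7 to 301 and 327 in females. Sult2a1, a steroid sulfotransferase, fell from 491, 744 and 355 to 0.30 and 0 CPM in males and from 367 and 373 to 180.3 and 253 in females. Cux2, a female-specific repressor of male genes, was already variable among the P14 males (16.9, 6.41 and 37.2 CPM) and stood at 0 and 0.0777 in the M2 males and 32.2 and 26.6 in the M2 females. Hao2 fell in both sexes, to 0.15 and 0.155 CPM in males and 27.2 and 21.4 in females from 104 to 210.2. Cyp2a4 was the other pattern, a rise in females, from 9.34 and 9.41 to 1405 and 1009 CPM, with 9.88, 14.8 and 10.3 in the P14 males and 6.15 and 3.11 in the M2 males. Slc22a26 (−8.91 for males minus females at M2, log2), Cyp2a22 (−6.67) and Sult2a2 (−10.07) differed as widely.

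**Figure D5:**
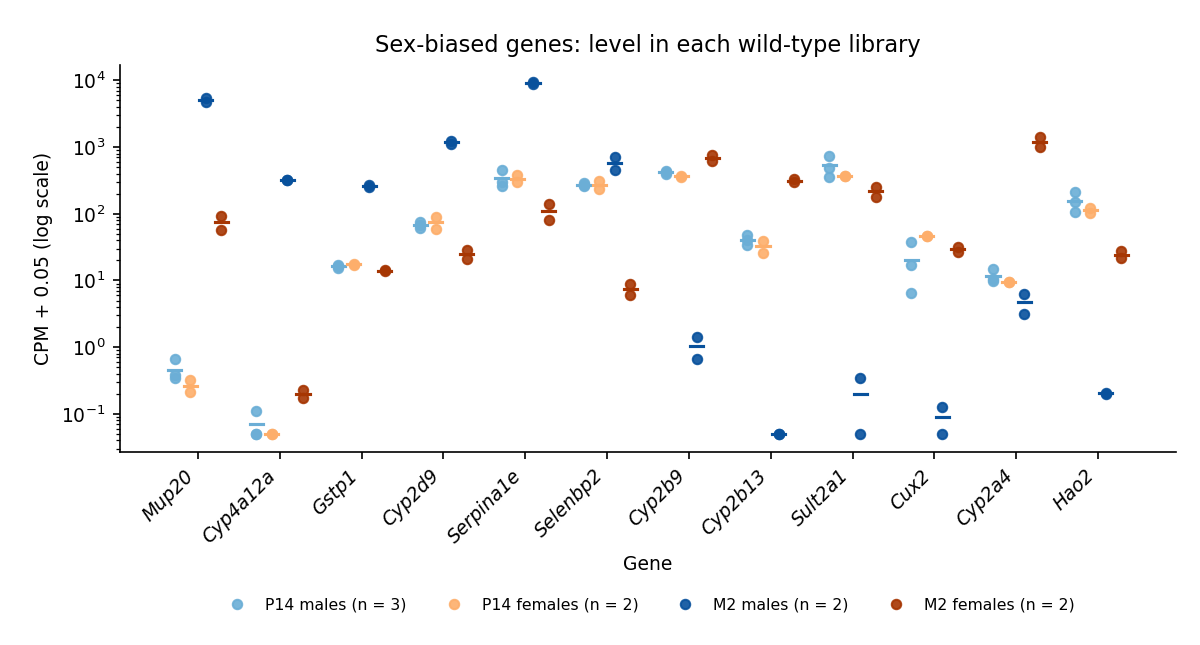
Level of 12 sex-biased genes in each wild-type library (CPM + 0.05, log scale), with 1 point per library, coloured by age and sex, and a bar at the group mean. At P14 the points of males and females lie close together for most genes, and at M2 the 6 genes on the left are higher in both males and the other 6, on the right, are higher in both females.

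Genes that mark the position of a hepatocyte in the lobule showed no common direction. In the pericentral list 8 of 20 tested rose and 10 fell, and in the periportal list 6 of 20 rose (3 without P14 female 1) and 4 fell. The periportal shares (30% higher and 20% lower) were near or below those of all genes, and the pericentral shares (40 and 50%) were above them. On the pericentral side Axin2, a Wnt feedback inhibitor, fell from 5.04 to 1.67 CPM in the mean, while Cyp2a5 (46.2 to 980.4) rose. Slc13a3, a dicarboxylate transporter, fell from 121 to 218 CPM to 1.65 to 7.65. On the periportal side Cdh1 (E-cadherin, 105 to 24.7) and Aldh1b1 (100.3 to 35) fell and Cyp2f2 (204 to 1259) rose.

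Clock genes differed between the ages, and the labels give no time of day for any library, so age and time of collection cannot be told apart. Of 16 genes 9 rose and 2 fell (4 fell without P14 male 2). Arntl (BMAL1) fell from 17.2 to 3.09 CPM and its relative Npas2 from 2.63 to 0.0308, while Dbp (7.0 to 37.4) and Ciart (0.994 to 11.6), which are driven in the opposite phase, rose. Immediate early genes were mixed, with 5 of 15 tested higher and 3 lower (33.3 and 20%), near or below the shares of all genes. Egr1 (56.6 to 16.1 CPM) and Btg2 (31.3 to 12.8) fell, and Dusp1 (14.1 to 52.9) and Jun (13.8 to 26.4) rose. Of 78 ribosomal protein genes 35 fell and 5 rose (median −0.30). Without M2 female 1 these were 23 and 8, and without P14 male 2 11 rose.

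The wild-type course was set beside that of the Ezh1/Ezh2 mutants in a fit of all 22 libraries, which shares the wild-type libraries with the results above. The M2 mutant libraries were registered apart from all the others, with titles of another form. Any difference in the handling of that group cannot be told apart from an effect of genotype on the change with age. The change with age differed between the genotypes in 2930 of 13493 genes (21.7%), 1368 more positive (10.1%) and 1562 more negative (11.6%) in wild-type. The first count fell to 759 without P14 wild-type female 1, to 798 without P14 wild-type female 2 and to between 796 and 888 without any 1 of the 4 M2 wild-type libraries. The labels' deletion was checked first. Ezh1 stood at 0.947 CPM in the P14 mutants and 1.34 in the M2 mutants in the mean, and Ezh2 at 5.54 and 4.59, beside the wild-type values above. Gene counts do not show whether the deleted part is among the reads. Afp went from 5.03 ± 2.4 CPM (SD, n = 7) to 2.25 ± 1.04 (SD, n = 6) in mutants, a change of −1.07 on the log2 scale, and the genotypes differed in that change by −6.91 (SE 0.63, adjusted p = 6.61e-07). Igf2 went from 599 to 6.88 CPM in mutants (difference −7.00), H19 from 5265 to 87.6 (−5.94) and Gpc3 from 74.9 to 25.9 (−7.11). All 4 also fell in mutants (adjusted p of 0.0268 or less), so the direction was shared. Afp started from different levels, with a mean of 124 CPM in the wild-type P14 libraries against 5.03 in the P14 mutants. For Igf2, H19 and Gpc3 the wild-type P14 means were 598, 5465 and 77.4 CPM, close to those of the P14 mutants. By list, the change differed in 11 of 13 fetal genes, 10 of 14 imprinted, 19 of 29 matrix and 23 of 45 cell cycle genes. Without M2 male 1 the matrix count was 12, and without P14 female 2, M2 male 2 or M2 female 2 the cell cycle count was 13. Among the genes that rise, Cyp7a1 changed by −0.54 in mutants, 2.98 less than in wild-type (adjusted p = 0.00875). The difference for Ghr was 0.68 (adjusted p = 0.0397). Of 21 Polycomb subunits tested 1 differed.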

How the data were processed

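The authors deposited read counts, as whole numbers per gene symbol, for 22 libraries, of which the 9 wild-type columns were used here and the 13 mutant columns only for the comparison of genotypes. The tools that the submitters' processing notes name are bedtools, DESeq2 1.14.1, HTSeq 0.6.1p1 and STAR 2.4.2a, and the genome build is mm9. The annotation and strand setting behind the counts are not stated in the labels. A second deposited table of normalized values was not used.

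The fits were made with edgeR 4.0.16 under R 4.3.3 (quasi-likelihood test after filterByExpr and TMM scaling), with limma 3.58.1 and DESeq2 1.42.0 as alternatives. Only the 9 wild-type libraries entered the main fit (4 age and sex groups, 5 residual degrees of freedom), and the comparison of genotypes used all 22 (14 residual degrees of freedom). All tests are two-sided, and p-values were adjusted over the genes tested by the Benjamini-Hochberg method. Fitted log2 changes use a prior count of 0.125, and folds against groups at 0 are bounds against 3 counts over the group, which cover counting error only. The labels mention no molecular identifiers, so reads may repeat molecules. Library totals ran from 13098256 to 19222753 counts. Replicates differed by more than counting error (chi-square of 15.1 to 73.3 per gene between replicate pairs), so precision rests on their spread and on the few libraries per group. The labels call replicates biological but do not tie each to an animal, so the spread behind the p-values may be technical. Of 12 pairs of libraries with the same replicate number in different groups, 2 correlated above 0.1 after group means were removed. In a group of 2 libraries the deviations mirror each other, so these pairs are not independent and the check cannot exclude pairing. The samples were treated as unpaired.

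The genes described were chosen by rule, as 11 genes always named, the 6 largest called changes per direction among genes whose ages do not overlap and whose mean log2 CPM reaches 2, from each of 30 lists at most 2 called genes in each direction whose mean reaches 1, and for sex and its change with age the 6 of lowest p in each direction (3 at P14). Not all are printed, some genes are not reported here, and other list members were named after their values were seen. The comparison, the lists (737 genes) and the rule were chosen with earlier results of these data known. Promoters (250 bases before to 50 after the start) came from RefSeq, GRCm38.p6, matched by symbol to 9475 tested genes, and no coordinates in mm9 are given. The test was also run on simulated counts in which only a small part of the genes changed and the sexes did not differ. Most tested genes were called in the data, so that run cannot check the test in this setting. Alternatives were DESeq2 size factors, DESeq2, limma-voom, no filter on low counts, all 22 libraries, no Rn45s, a replicate block, no sex term and each wild-type library left out.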

Additional observations from a re-analysis of the deposited data

Results flagged for a closer look

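Among the 376 pairs of a named gene and an age (188 genes), 18 had a library that stood apart from the others of its age. Both sexes were pooled within an age, so genes that split by sex at M2 could hardly be flagged. The 18 are therefore not compared with a chance rate, and those in Cyp4a12a, Mup10 and Npas2 rest on values near 0. P14 male 2 stood apart in Tdo2 at 703 CPM (others 444 to 469), Cyp2a4 at 14.8 CPM (others 9.34 to 10.3), Cyp3a11 at 2734 CPM (others 1408 to 1716), Cyp2e1 at 5628 CPM (others 3820.4 to 4277), Stat5b at 47.9 CPM (others 73.1 to 80.2) and Reln at 87.4 CPM (others 162 to 184). M2 female 1 stood apart in Mki67 at 12.4 CPM (others 2.72 to 4.21), Ezh1 at 9.86 CPM (others 6.84 to 7.35), Btg2 at 17.7 CPM (others 10.4 to 11.6) and Npas2 at 0.123 CPM (others 0). P14 female 1 stood apart in Afp at 239.5 CPM (others 69.9 to 117) and H19 at 7539.5 CPM (others 4508 to 5152). P14 male 1 stood apart in Nr0b2 at 45.3 CPM (others 22 to 27.5). P14 male 3 stood apart in Cyp4a12a at 0.0592 CPM (others 0). P14 female 2 stood apart in Mup10 at 0.0535 CPM (others 0). M2 male 1 stood apart in Timp3 at 12.2 CPM (others 14.8 to 15.1). M2 male 2 stood apart in Cldn1 at 38.3 CPM (others 27.4 to 29.1) and Cbx7 at 5.44 CPM (others 4.51 to 4.62). 

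The change with age differed between the sexes, by the test of the interaction, in 33 named genes (log2 change in males minus that in females). It was more positive in males for Mup20 (5.21), Cyp7b1 (2.81), Gys2 (1.05), C6 (4.12), Selenbp2 (6.29), Rps4l (1.32), Rpl36 (1.16), Gstp1 (4.33), Cyp2d9 (5.72), Serpina1e (6.37), Hsd3b5 (7.78) and Cyp8b1 (3.97). It was more negative in males for Mki67 (−2.46), Idi1 (−2.55), Sqle (−3.79), Elovl6 (−1.97), Ugt1a5 (−2.80), Hamp2 (−3.70), Cyp2a4 (−8.33), Pigr (−1.21), Cux2 (−8.12), Avpr1a (−1.69), Srebf1 (−2.65), Cyp3a16 (−4.04), Cyp2b13 (−15.57), Sult2a1 (−10.91), Hao2 (−7.70), Aldh1b1 (−0.96), Tfrc (−1.68), Slc22a26 (−8.45), Cyp2b9 (−9.61), Cyp2a22 (−6.74) and Sult2a2 (−10.37). For the genes whose M2 libraries of a sex were at or near 0 these values depend on the prior count. As given in the report, the number of such genes over all genes moved with each library left out.

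The change with age also differed between wild-type and mutant libraries, by the same kind of test in the fit of all 22 libraries, for Afp (−6.91), Igf2 (−7.00), H19 (−5.94), Gpc3 (−7.11), Ghr (0.68), Cyp7a1 (2.98) and Mki67 (−3.04), given as the log2 change in wild-type minus that in mutants.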

How the results depend on the processing

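Of 201 pairs of a named gene and a comparison, 181 kept their direction and their side of the threshold under all 17 alternatives. The gene lists were less stable. Of 332 list results (counts called by age, sex or genotype, and medians), 131 stayed the same under every alternative run for them. A count was taken as the same when it stayed within 1.5 times. The counts of genes with a change with age in wild-type stayed within 1.5 times under each of them, and of the 7672 genes called, 6484 were also called in the same direction with all 22 libraries in the fit. DESeq2 size factors moved the median of all genes by 0.02 on the log2 scale. Both scalings assume that most genes do not change, so their closeness cannot show whether levels shifted as a whole. Without the sex term, which lets the sex difference at M2 count as noise, the direction turned for Cyp2b13 (2.07) and Selenbp2 (0.11), 2 genes that changed in opposite ways in the sexes. In males alone, leaving out single libraries gave 1862 to 3337 genes higher and 1864 to 3497 lower, and in females 1896 to 3538 and 1588 to 3460. The counts that rest on the sexes were the least stable. For sex at M2 they were 164 higher in males and 163 higher in females with all 22 libraries, and 131 to 1076 and 154 to 1080 without single libraries. For sex at P14 they were 25 and 8 with DESeq2, and 4 to 715 and 1 to 500 without single libraries. For the change with age between the sexes they were 39 and 63 with all 22 libraries, and 47 to 438 and 97 to 635 without single libraries. For the change with age between genotypes, the counts without single wild-type libraries were 759 to 1532 more positive and 1156 to 1570 more negative in wild-type. Where a sex was left with 1 library, that library was assumed to vary like the other groups. The check made showed no clear pairing by replicate number but could not exclude it. The fit with a replicate block gave 973 and 1031 genes for sex at M2, 741 and 757 for sex at P14, and 538 and 674 for the change with age between the sexes. The causes of these differences were not tested. With 2 libraries per sex at M2, differences between the sexes are the part of these data with the least precision.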

Other observations

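Genes outside the lists were then ranked by their change, a rule chosen after the data were seen. It took called genes in no list whose mean log2 CPM reached 5 and whose M2 libraries do not overlap the P14 libraries (1046 genes), and the 12 largest changes per direction were read. The liver carboxylesterase genes Ces1f and Ces3b led the increases. Ces1f went from 3.88 ± 0.539 CPM (SD, n = 5) to 519 ± 88.5 (SD, n = 4), and Ces3b from 5.06 to 383 in the mean. Both belong to a family of close paralogs. Aldh1a1, which oxidises retinal to retinoic acid, went from 44.2 ± 16.8 CPM to 1116 ± 239. Ugdh, which makes the UDP-glucuronate used by the glucuronosyltransferases, went from 10.8 to 156 CPM, Mug2, a murinoglobulin protease inhibitor, from 62 to 817, and Acss2, the cytosolic acetyl-CoA synthetase, from 16.4 to 158.

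Among the decreases were Galk1, the first enzyme of galactose use, from 96.2 ± 14.1 CPM (SD, n = 5) to 20.1 ± 3.72 (SD, n = 4), and Agt, angiotensinogen, from 1969 ± 312 to 521 ± 190.0. Slc22a7, an organic anion transporter, went from 124 to 12.1 CPM in the mean, Lrp5, a Wnt co-receptor, from 132 to 19.9, the stress-response factor gene Atf5 from 194 to 34.2 and Cldn1, a tight junction protein, from 149 to 30.9. Being called in the test across all genes was part of the rule, so the adjusted p of these named genes (3.84e-07 or less) adds no separate support.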
